A study of Bos taurus with 12 samples.

Results

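The core and linker histone genes of the liver were compared between control cows and cows given GSGME, an extract of grape seeds and meal of grape marc. They were taken as every array transcript annotated with 1 histone gene symbol (H1-, H2A, H2A.Z, H2A.X, macroH2A, H2B, H3 or H4), with the transcript of the highest mean signal kept for each symbol. Histone transcripts annotated only with a symbol starting with LOC fall outside this rule and were not examined. Of the 26773 transcripts on the array 48 met this rule, and they gave 42 histone genes among 18010 genes with a single symbol. By their symbols 27 were replication-dependent genes, 14 were variant histone genes and 1, H2BC2P, is annotated as a pseudogene.

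The liver samples came from 12 female Holstein cows, biopsied in week 1 postpartum (day 7 ± 2), with 1 Affymetrix Bovine Gene 1.0 ST array per cow. The 6 control cows received the basal total mixed ration with 1% wheat bran, and the 6 GSGME cows the same ration with 1% GSGME of dry matter, in both cases starting 3 weeks before the expected calving date. Cows are named by group and number. Each group held multiparous cows and a single primiparous cow, which the sample labels do not single out. Values are log2 signals, and differences are GSGME mean minus control mean. A fold is such a log2 difference turned back into a linear ratio, with a negative sign for a decrease.

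Histones are the proteins around which DNA is wrapped. An octamer of H2A, H2B, H3 and H4 forms the nucleosome core, and the linker histone H1 binds where DNA enters and leaves it. The replication-dependent genes lie in clusters, are transcribed mainly during S phase, when new DNA has to be packaged, and make messages that end in a stem loop instead of a poly(A) tail. The stem loop is bound by the protein SLBP, which governs the processing, translation and decay of these messages. Variant histones such as H3.3, H2A.Z and macroH2A are made throughout the cell cycle, mostly from polyadenylated messages, and are exchanged into chromatin outside replication. In the adult liver most hepatocytes do not divide, and replication-dependent histone messages are usually tied to the small share of cells in S phase.

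As background to the histone values, the array medians lay between 6.02 and 6.17, arrays correlated pairwise at 0.968 to 0.990 across transcripts, and no arrays held identical values. The hepatocyte markers had a mean of 12.1 to 12.3 in every cow, which fits the tissue label. Transcripts were called at a fold above 1.3 or below -1.3 with an unadjusted p below 0.05 (limma). At this criterion 322 transcripts were higher and 167 lower in GSGME cows, which is 1.2% and 0.624% of those tested. Cyclic loess scaling gave 375 and 112 in place of these. After Benjamini-Hochberg adjustment over all transcripts none had an adjusted p below 0.05 by limma (lowest 0.830) or by the methods' t-test, while 1567 and 1530 had an unadjusted p below 0.05. All calls below rest on unadjusted p-values, each called histone gene had an adjusted p of 0.830, and the number of arrays limits the precision. The 95% intervals are those of limma, and an interval that leaves out 0 stands for an unadjusted p below 0.05.

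Of the 42 histone genes 7 were higher in GSGME cows and 0 lower, against the 1.2% and 0.624% of all transcripts. All 7 (H3C13, H1-4, H2AC21, H2AC20, H2BC4, H2BC3 and H2AC14) were among the 27 replication-dependent genes, and 0 of the 14 variant genes passed the criterion in either direction. Folds of the 7 ranged from 1.301 to 1.68. The groups overlapped for every one of the 42 genes. Under the methods' t-test at the same fold the count was 4 (H3C13, H1-4, H2AC20 and H2AC21), against 0.844% of all transcripts higher.

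**Figure D1:**
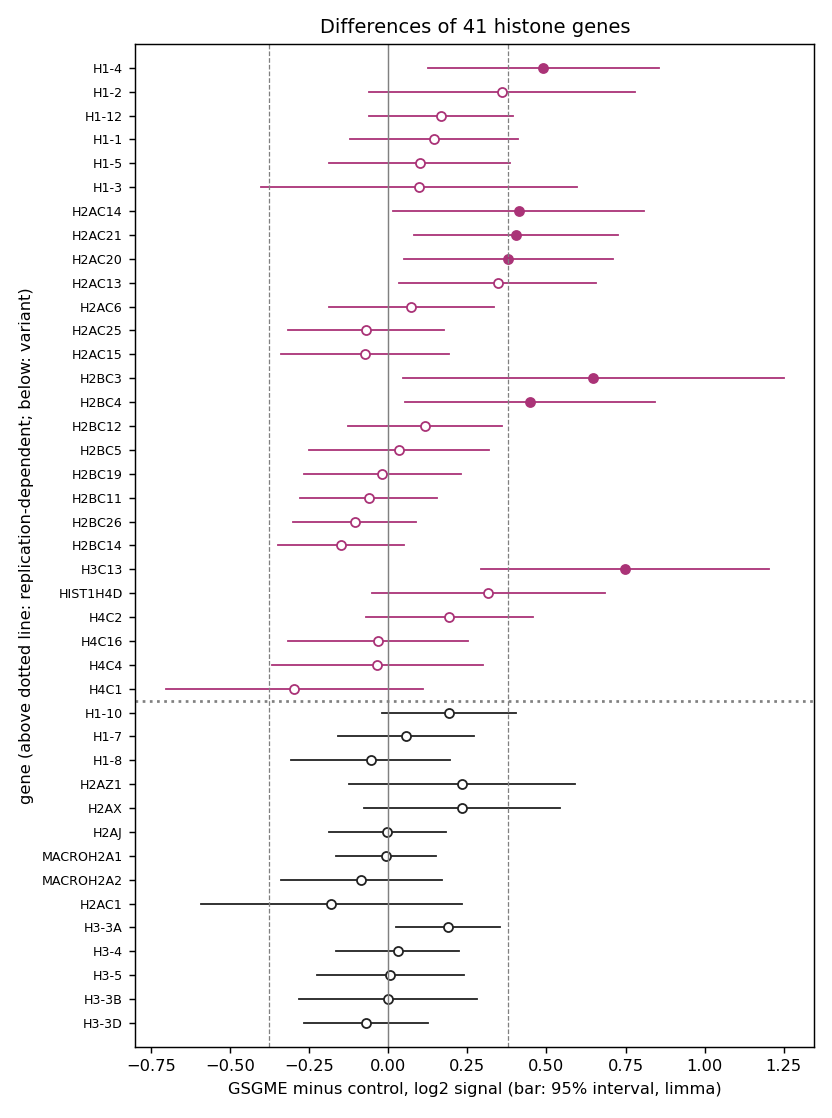
Difference in log2 signal, GSGME minus control, of the 27 replication-dependent genes (above the dotted line) and the 14 variant genes (below), with the 95% interval from limma; H2BC2P is not drawn. Filled points passed the criterion, dashed lines mark a fold of 1.3 in either direction, and all 7 filled points lie above the dotted line and to the right of 0, with H3C13 the farthest at 0.75.

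Among the linker histones, H1-4 (H1.4), 1 of the H1 subtypes made in dividing somatic cells, was higher in GSGME cows. Its signal ran from 9.05 over a median of 9.42 to 9.87 in control cows and from 9.60 over 9.92 to 10.37 in GSGME cows. Each of the 6 GSGME cows exceeded the control mean, and the ranges overlapped between 9.60 and 9.87. The means were 9.42 ± 0.36 and 9.91 ± 0.29 (SD, n = 6 each), a difference of 0.49 (95% interval 0.13 to 0.85) and a fold of 1.40 (limma, adjusted p = 0.830). The other 5 replication-dependent H1 genes did not pass the criterion, although their GSGME means were also above the control means, by 0.10 to 0.36. H1-2 (H1.2), likewise a somatic subtype, stood at 6.24 ± 0.47 in control and 6.60 ± 0.27 in GSGME cows (fold 1.28, interval of the log2 difference -0.06 to 0.78), and H1-12 at 5.03 ± 0.16 and 5.19 ± 0.20 (interval -0.06 to 0.39).

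Of the 7 replication-dependent H2A genes 3 were higher and 0 lower, and their median difference was 0.35. H2AC21 and H2AC20, which encode H2A proteins that pair with H2B in the nucleosome core, are next to each other in the bovine gene table and had like differences, of 0.41 and 0.38. The signal of H2AC21 ran from 6.65 over 7.09 to 7.28 in control cows and from 7.22 over 7.28 to 8.04 in GSGME cows. The 2 ranges met only between 7.22 and 7.28, but 4 of the GSGME cows lay within 0.07 of the lowest GSGME value, and only GSGME_741 (8.04) and GSGME_1143 (7.65) stood clearly above. The fold was 1.32 (interval of the log2 difference 0.08 to 0.73).

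H2AC20 ran from 8.39 over 8.90 to 9.24 in control and from 8.83 over 9.25 to 9.63 in GSGME cows, of which 5 exceeded the control mean. Its means of 8.89 ± 0.31 and 9.27 ± 0.27 gave a fold of 1.301, just above the threshold (interval of the log2 difference 0.05 to 0.71). A further array transcript with the symbol H2AC20, read by other probes, gave a fold of 1.35 (interval 0.06 to 0.81). The third called H2A gene, H2AC14, had control signals of 3.15 to 4.01 and GSGME signals of 3.39 to 4.42, with a fold of 1.33 (interval 0.01 to 0.81). Its control mean of 3.66 lay near the level of the olfactory receptor transcripts on these arrays (median 3.67 over 717), which serve as a guide to background signal in liver.

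H2AC13, whose signal was well above that background, just missed the fold threshold. It ran from 9.88 over 10.23 to 10.62 in control and from 10.26 over 10.56 to 10.92 in GSGME cows, each of which lay above the control mean (fold 1.27, interval 0.04 to 0.66). The other 3 H2A genes (H2AC6, H2AC15 and H2AC25) differed by -0.07 to 0.07.

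Of the 8 replication-dependent H2B genes 2 were higher and 0 lower. H2BC4, the sole one of them above the median transcript of 6.07, ran from 8.86 over 9.31 to 9.75 in control cows and from 9.07 over 9.78 to 10.27 in GSGME cows. In all but 1 of the GSGME cows the signal was above the control mean, while control_1150 (9.75) exceeded 3 of them. The means of 9.30 ± 0.32 and 9.74 ± 0.39 gave a fold of 1.36 (interval of the log2 difference 0.05 to 0.84).

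H2BC3 had the widest spread of the 7 called genes, with 4.74 over 5.24 to 6.32 in control and 5.29 over 5.995 to 6.78 in GSGME cows. The control animal control_1041, at 6.32, was above 4 of the GSGME cows. The difference was 0.65 with an interval of 0.05 to 1.25 (fold 1.57). Its control mean of 5.37 was below the 95th percentile of the olfactory receptor transcripts (5.62), while its mean over all cows, 5.69, was above it. The remaining 6 H2B genes, all below the median transcript, differed by -0.15 to 0.12. H2BC14, the lowest of these in difference, had means of 3.87 ± 0.17 and 3.72 ± 0.12 (interval -0.35 to 0.05), and no GSGME cow exceeded its control mean. It is the neighbour of H2AC14 in the gene table, whose difference had the opposite sign.

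H3C13 was the single replication-dependent H3 gene with a symbol of its own and had the largest difference of the 42. It encodes an H3 protein of the replication-coupled kind. Its signal ran from 7.19 over 7.73 to 8.13 in control cows and from 7.88 over 8.31 to 9.05 in GSGME cows. Of the 6 GSGME cows 5 lay above the highest control cow, and only GSGME_1001, at 7.88, lay within the control range. The means were 7.71 ± 0.36 and 8.45 ± 0.47 (SD, n = 6 each), a difference of 0.75 (95% interval 0.29 to 1.20) and a fold of 1.68 (limma, adjusted p = 0.830). Of the 3 transcripts with this symbol, 2 held identical values, and the other gave a smaller fold of 1.22 that did not pass the criterion (interval -0.02 to 0.58).

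**Figure D2:**
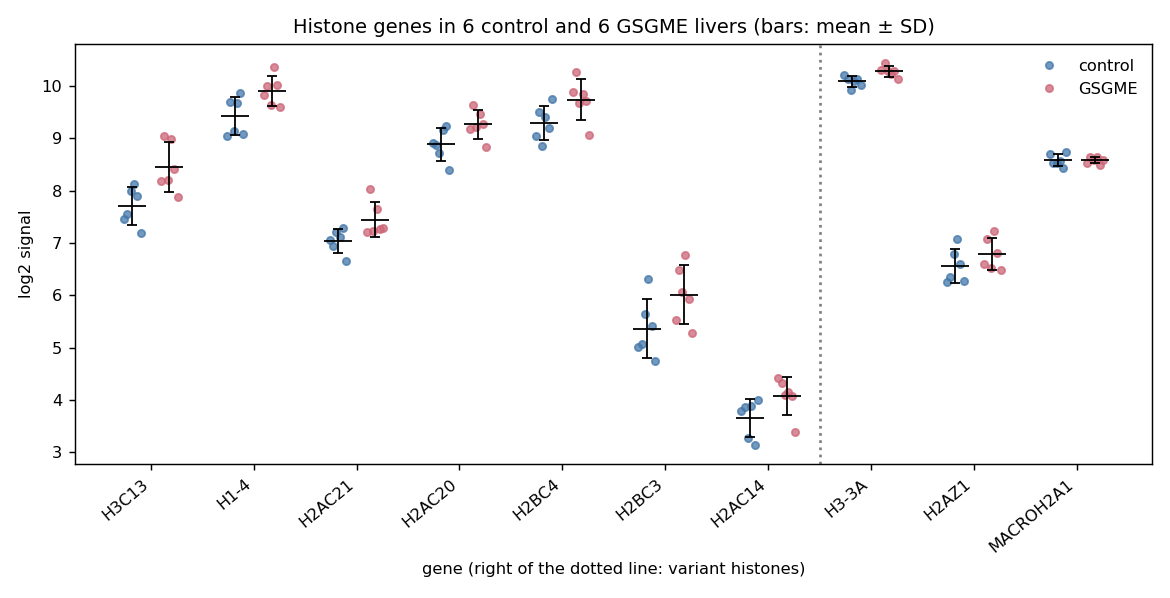
Log2 signal of the 7 called replication-dependent genes and, right of the dotted line, of 3 variant genes, with 1 point per cow and bars for mean ± SD (6 control, 6 GSGME). For H3C13 only 1 GSGME cow lies within the control range of 7.19 to 8.13, and for MACROH2A1 the GSGME cows, at 8.50 to 8.64, lie inside the control range.

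None of the 5 H4 genes passed the criterion, and their median difference was -0.03. HIST1H4D stood at 8.79 ± 0.37 in control and 9.11 ± 0.29 in GSGME cows (interval -0.05 to 0.68). H4C2 and its neighbour H4C1 differed in opposite directions, by 0.19 (interval -0.07 to 0.46) and -0.30 (-0.70 to 0.11). H4C1 had the lowest difference of the 42 genes, with control signals of 4.31 to 5.58 and GSGME signals of 4.07 to 4.80. H4C4 and H4C16, near the background at 3.84 and 3.62 in control cows, differed by -0.04 and -0.03.

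The replication-dependent genes differed among themselves by signal. Of the 27 genes 18 had a higher mean in GSGME cows, against 45.2% of all transcripts, and their median difference was 0.12, against -0.02 over all transcripts. The 10 with a mean above the median transcript all had a higher GSGME mean, with a median difference of 0.37, and 5 of them were called, against 1.02% higher and 0.426% lower of the transcripts above that level. The 17 at or below it had a median difference of -0.02, with 2 called and 8 higher in mean. In this lower part 3 genes (H2BC19, H2BC26 and H4C16) were at or below the olfactory receptor median, and 16 of the 17 were below the 95th percentile of the olfactory receptors, 5.62. Sign and size thus went with signal level in this class, and what part background signal has in the differences of the low genes was not tested.

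Among the variant histones fewer genes were called, and no test compared the classes. Of the 14 variant genes 7 had a higher mean in GSGME cows, the median difference was 0.00 and the differences ranged from -0.18 to 0.23. Above the median transcript there were 9 variant genes, of which 4 had a higher GSGME mean and 0 were called. The class medians of 0.12 and 0.00 differed by 0.11, about the size of the SD between cows of that difference (0.12). This SD describes the spread of single cows and does not measure the uncertainty of a difference between groups. The 17 replication-dependent genes of lower signal, with their median of -0.02, lay close to the variants.

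H3-3A, which with H3-3B encodes the replacement histone H3.3, was the variant gene with the lowest p. It ran from 9.93 over 10.12 to 10.22 in control cows and from 10.13 over 10.29 to 10.44 in GSGME cows. Each GSGME cow was above the control mean, but the difference of 0.19 (95% interval 0.03 to 0.35) was a fold of 1.14, below the threshold. Without a fold threshold H3-3A and 8 replication-dependent genes had a p below 0.05 in the direction of a higher GSGME mean, against 2.68% of all transcripts higher and 3.17% lower. H3-3B, which codes for the same protein, had means of 9.94 ± 0.21 and 9.94 ± 0.27, with an interval of -0.28 to 0.28.

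The other variants lay on both sides of 0. H1-10 (H1.10), a linker histone made outside S phase, had means of 7.54 ± 0.18 and 7.73 ± 0.15 (interval -0.02 to 0.40). H2AX, whose product is phosphorylated at DNA breaks, stood at 7.26 ± 0.22 and 7.49 ± 0.32 (interval -0.08 to 0.54). H2AZ1, encoding an H2A.Z found at gene starts, stood at 6.56 ± 0.33 and 6.79 ± 0.31, a difference of 0.23 with an interval from -0.12 to 0.59. The intervals of H1-10, H2AX and H2AZ1 reach beyond a fold of 1.3. MACROH2A1 and MACROH2A2, whose products carry a large additional domain, differed by -0.01 (interval -0.17 to 0.15) and -0.09 (-0.34 to 0.17), and H2AJ, another H2A variant, by -0.00 (-0.19 to 0.18). For MACROH2A1, MACROH2A2 and H2AJ these intervals lie within a fold of 1.3 in both directions. The genes of testis and oocyte histones (H1-7, H1-8, H2AC1, H3-4 and H3-5) differed by -0.18 to 0.06. H3-3D, also an H3 variant by its symbol, differed by -0.07, and the pseudogene H2BC2P by -0.16.

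The replication-dependent genes of 1 core histone family are nearly identical copies of one another. Many array transcripts carry several histone symbols, so they name no single gene and are not among the 42. Of 26 such transcripts 25 listed histone genes of 1 family only, where symbols starting with LOC were left out of this check. This set was added after the values of the 42 genes had been seen. Among the 25, 8 were higher in GSGME cows and 0 lower, against 1.2% and 0.624% of all transcripts. A higher GSGME mean was found in 23, against 45.2% of all transcripts, and the median difference was 0.36. All 8 H2B and all 8 H3 transcripts had a higher GSGME mean, with 4 called in each family and median differences of 0.43 and 0.46. The largest was an H2B transcript with 13 symbols, which ran from 7.33 over 7.91 to 8.75 in control cows and from 8.37 over 8.83 to 9.86 in GSGME cows (fold 2.10, interval of the log2 difference 0.50 to 1.65). The H3 transcript with the lowest p had 5 symbols, control signals of 5.71 to 6.78 and GSGME signals of 6.48 to 7.55 (fold 1.82, interval 0.43 to 1.297).

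The 5 H4 transcripts had 0 calls, as did the H4 genes with 1 symbol. Of these 5, 4 had a higher GSGME mean, and the exception, with 10 symbols, had means of 4.89 and 4.61 (fold -1.22, interval -0.51 to -0.06). Of 4 H2A transcripts 0 were called. The closest was shared by both H2A.Z genes and ran from 7.47 over 7.72 to 7.99 in control cows and from 7.88 over 8.11 to 8.32 in GSGME cows. Its fold of 1.295 was just below the threshold (interval 0.13 to 0.61). Transcripts that share probes repeat a measurement in part, so the 25 are not independent of each other or of the 42 genes. The paper listed an H2A-like transcript, named only by a LOC symbol, among its most strongly higher ones. No H2A gene or transcript given here reached the fold reported for that transcript, so the H2A values here do not cover it.

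**Figure D3:**
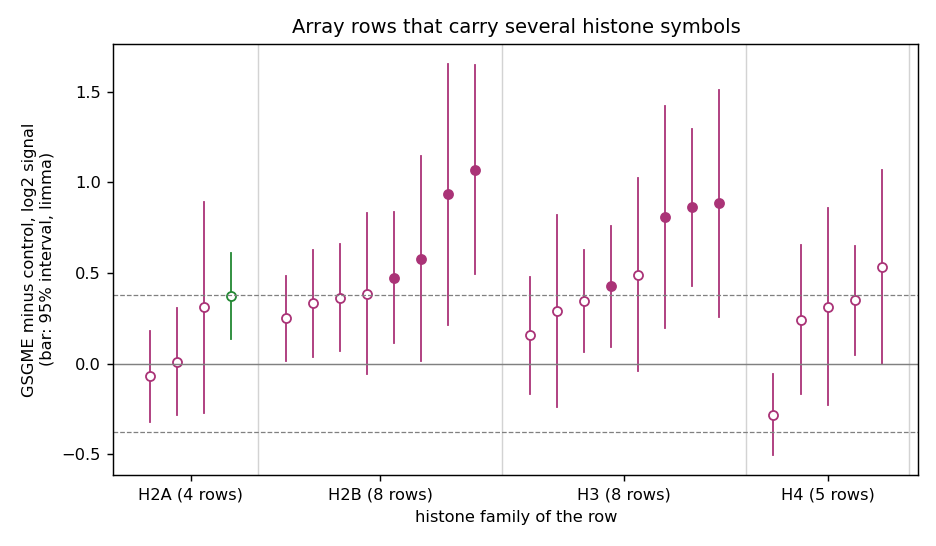
Difference in log2 signal, GSGME minus control, of the 25 array transcripts that carry several histone symbols of 1 family, ordered by difference within the family, with the 95% interval from limma; dashed lines mark a fold of 1.3 in either direction and filled points passed the criterion. The filled points are 4 of the 8 H2B and 4 of the 8 H3 transcripts, and the green point is the H2A.Z transcript, at 0.37.

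The cows did not contribute evenly. The mean over the 27 replication-dependent genes was 5.63 to 5.90 in control cows (5.76 ± 0.12) and 5.64 to 6.10 in GSGME cows (5.93 ± 0.17, n = 6 each). Of the GSGME cows 5 lay above the control mean, GSGME_741 and GSGME_1143 were highest at 6.10, and GSGME_1001, at 5.64, was next to the lowest control cow. GSGME_1001 was the lowest of the GSGME cows in 18 of the 27 genes and in 6 of the 7 called ones, while GSGME_741 was the highest in 9 and GSGME_1143 in 8. Over the 14 variant genes the means were 6.77 ± 0.03 and 6.81 ± 0.09, with GSGME_741 (6.90) and GSGME_1143 (6.92) again highest. The replication-dependent mean minus the variant mean of the same cow was -1.01 ± 0.14 in control and -0.88 ± 0.11 in GSGME cows, and 5 of the 6 exceeded the control mean.

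Single cows decided part of the count. Without GSGME_741 or without GSGME_1143 only H3C13 and H1-4 passed the criterion, and without both, a set left out after the data were seen, only H3C13. Without control_825 or control_1150 the count was 4, and without control_1041 or GSGME_1001 it was 9, with H2AC13 and HIST1H4D added. Without control_1031 it was 6, with H1-2 and H2AC13 added and H2AC14, H2BC3 and H2BC4 lost, and without any other cow it was 5 or 6. H2AC21 was lost in 3 of the 12 omissions, H2AC20 in 5, H2BC4 in 6, and H2BC3 and H2AC14 in 7 each. H3C13 and H1-4 stayed past the criterion whichever single cow was left out, with differences of 0.63 to 0.86 for H3C13 and 0.40 to 0.58 for H1-4.

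Genes of DNA replication and of mitosis were counted beside the histones. For comparison, 1.2% of all transcripts were higher and 0.624% lower. In the replication list 6 of 39 measured genes were higher, 0 lower and 33 not called. Among the higher ones were RRM2 (fold 1.95), which makes DNA precursors, TYMS (1.59), DTL (1.63), RFC4 (1.49) and PCNA (1.45), the sliding clamp of DNA polymerase. The methods' t-test called RRM2, TYMS, DTL and RFC4 but not PCNA. In the mitosis list 27 of 32 were higher and 0 lower, among them CDK1 (2.71), the kinase that starts mitosis, CDKN3 (2.63), KIF11 (2.25), BUB1B (2.19) and the proliferation marker MKI67 (2.30). CENPA, the H3 variant of the centromere, whose symbol lies outside the histone naming rule, ran from 3.27 over 3.71 to 4.84 in control and from 4.18 over 5.29 to 6.14 in GSGME cows (fold 2.49, interval 0.62 to 2.01). The control means of CENPA (3.86), CDK1 (4.22), CDKN3 (4.12), KIF11 (4.80), BUB1B (4.71) and DTL (5.54) were below the 95th percentile of the olfactory receptors. The folds of these genes thus start from signals within the background range. The earlier results of these data included cell cycle genes, so these counts are context and no independent support. Of the genes named here, the paper also measured RRM2, BUB1B and CENPA by qPCR, in all cows of the feeding trial. By qPCR these genes were also higher in GSGME cows, but with smaller folds than on the arrays. None of these qPCR differences was significant in the paper.

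By cow, the mean of the mitosis list was 5.01 to 6.11 in control cows and 5.41 to 7.10 in GSGME cows, highest in GSGME_1143 (7.10) and next in GSGME_741 (6.34). The mean of the replication list was 6.11 to 6.65 and 6.21 to 7.04, highest in GSGME_741 (7.04) and next in GSGME_1143 (6.93). The highest control cow was control_1041 in both lists. The part of dividing cells in the histone differences was not tested. In whole tissue, fewer or more cells of a type and less or more RNA per cell cannot be told apart.

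**Figure D4:**
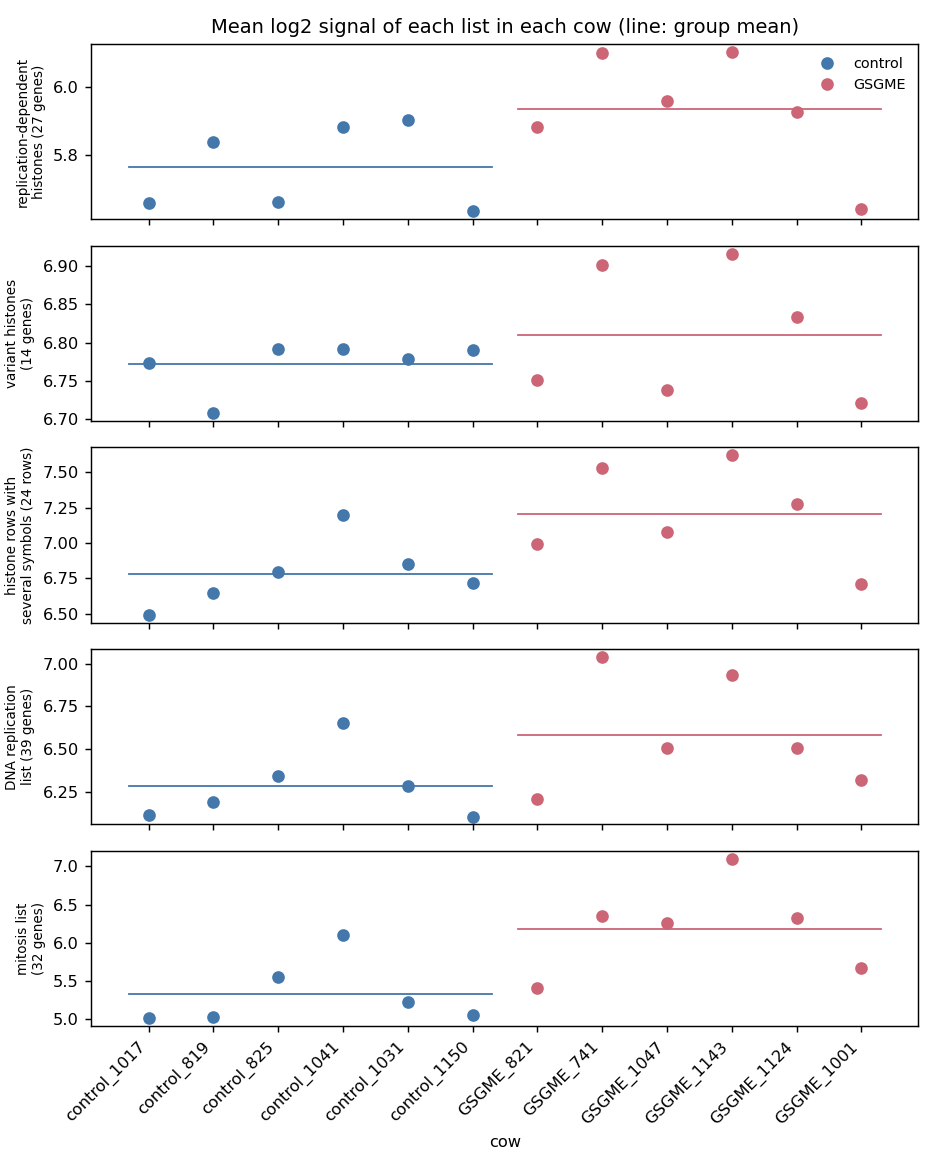
Mean log2 signal in each cow over the 27 replication-dependent genes, the 14 variant genes, the 24 histone transcripts with several symbols other than the H2A.Z one, the 39 replication genes and the 32 mitosis genes, with a line at each group mean; each panel has its own scale. GSGME_741 and GSGME_1143 are the highest in all 5 panels, and GSGME_1001 lies within the control range in the histone panels.

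Proteins that handle histones or their messages were compared in turn. Of 23 measured genes of histone message processing 0 passed the criterion, with a median difference of -0.01. SLBP had medians of 6.77 in control and 6.86 in GSGME cows (fold 1.09, interval -0.20 to 0.45). NPAT, a coactivator of replication-dependent histone transcription, had 6.45 to 7.33 and 7.01 to 7.39 (fold 1.19, interval -0.02 to 0.53). Of 26 measured histone chaperones and assembly factors 4 were higher and 0 lower, against 1.2% and 0.624% of all transcripts. These were MMS22L (fold 1.42), which acts at stalled replication forks, ASF1B (1.32), an H3-H4 chaperone of proliferating cells, HJURP (1.485), the CENPA chaperone, which ran from 4.76 to 5.85 in control and from 5.28 to 6.48 in GSGME cows, and CHAF1B (1.40), a subunit of the assembly factor CAF-1. The control means of MMS22L (5.34), ASF1B (5.39), HJURP (5.31) and CHAF1B (4.62) were below the 95th percentile of the olfactory receptors (5.62). Their folds thus also start from signals within the background range. CHAF1B was 6.10 in GSGME_741 and at most 5.19 in the other GSGME cows, and the methods' t-test did not call it. CHAF1A, the large subunit of CAF-1, had a fold of 1.16 (interval -0.12 to 0.55). Of 11 genes of the complexes that exchange H2A.Z 0 were called.

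Markers of other cells that a liver biopsy can hold were checked as whole lists, beside the 1.2% higher and 0.624% lower of all transcripts. T and NK cell markers had 1 of 8 higher (CD3D, fold 1.35), with list means of 5.61 to 5.95 in control and 5.79 to 6.23 in GSGME cows. B and plasma cell markers had 1 of 5 higher (JCHAIN, fold 1.58), with list means of 6.13 to 6.36 and 6.19 to 6.71. No marker was called in the macrophage (8 genes), neutrophil (5), endothelial (6), stellate and fibroblast (6), bile duct (4), erythroid (5) or hepatocyte (8) lists. Some cows stood apart in them all the same. The erythroid mean was 6.43 in GSGME_741 and 5.26 to 5.82 in the other cows, and the stellate and fibroblast mean was 8.39 in GSGME_821 and at most 7.30 in the others. The T and NK and the B and plasma cell means were highest in GSGME_821 (6.23 and 6.71). The next highest B and plasma cell means were those of GSGME_1143 (6.48) and GSGME_741 (6.45), the cows with the highest histone means, and all 3 lay above every control cow. JCHAIN had the same order, with 8.94 in GSGME_821, 8.72 in GSGME_1143 and 8.48 in GSGME_741 against at most 8.05 in control cows. The other measured markers of this list differed by 0.19 (MS4A1), -0.00 (CD79A), -0.09 (CD79B) and 0.02 (PAX5). In GSGME_1143 each of them lay within the control range. In GSGME_741 CD79A (6.31) lay below that range, PAX5 (5.79) above it, and MS4A1 and CD79B within it. In GSGME_821 the replication-dependent mean was 5.88. The part of these cells in the histone differences was not tested.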

How the data were processed

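RNA of 12 liver biopsies (6 control, 6 GSGME cows) was hybridised to 1 array each. The authors processed the scans with RMA in the Affymetrix Expression Console (background correction, normalization and probe summary), and deposited 1 log2 signal with 2 decimals per transcript and array (26773 transcripts). Software versions: not given in the sources used here. Labelling with the WT Plus kit primes along the whole transcript, so messages without a poly(A) tail are also copied.

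Symbols came from the platform annotation, in which 18457 transcripts had 1 symbol, 688 several and 7628 none. All 42 histone genes matched the ARS-UCD2.0 gene table, which was used for names and neighbours only. Histone classes followed the symbols.

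Groups were compared with the two-sided moderated test of limma 3.58.1 (R 4.3.3; lmFit, eBayes), with Benjamini-Hochberg adjustment over all transcripts. Python 3.11.15, numpy 2.4.6, pandas 2.3.3 and matplotlib 3.10.9 were used for the rest. The script was tested on simulated data. The alternatives were the methods' t-test (unpaired, equal variance), eBayes with trend and robust settings, cyclic loess, array weights, only transcripts above the median transcript, the mean over all transcripts of a symbol, no fold threshold, other class settings and each cow left out.

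Named were the called histone genes, the 3 lowest p and the highest mean per class, at most 5 called genes per supporting list, and SLBP, NPAT, ASF1B, CHAF1A, CHAF1B, MKI67, PCNA and CENPA; the other histone genes are given to account for every one. The members, lists and rule were chosen with earlier results of these data known.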

Additional observations from a re-analysis of the deposited data

Results flagged for a closer look

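Within groups of 6 cows, 40 sets of values (named histone genes and class means) were checked for a single cow far from the rest by Dixon's ratio, and 3 stood out, where chance gives about 1 in 20. For H2AC14, GSGME_1001 was at 3.39 against 4.08 for the next lowest GSGME cow. For H4C1, control_819 was at 5.58 against 4.73 for the next highest control cow. The mean over the 14 variant genes was 6.71 in control_819 against 6.77 in the next lowest control cow.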

How the results depend on the processing

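No sign of a named histone gene reversed under any alternative. Over the whole classes, array weights changed the sign of 1 replication-dependent and 1 variant gene. Over the alternatives, single named histone genes kept their side of the criterion in 271 cases, lost a call in 41 and gained one in 6. The count of 7 higher histone genes, all replication-dependent, was 4 with array weights, 4 by the methods' t-test, 2 to 9 with single cows left out and 1 without GSGME_741 and GSGME_1143, and it was 15 with the transcripts of several symbols added. These last 2 settings were chosen after the data were seen. Count ranges with single cows left out were 0 to 0 for lower histone genes and for variants in either direction. Without a fold threshold 1 variant gene was higher. Restriction to transcripts above the median transcript moved the replication-dependent median from 0.12 to 0.37 and its distance from the variant median from 0.11 to 0.37. With single cows left out these ran from 0.09 to 0.19 and from 0.06 to 0.15, and the variant median from -0.02 to 0.04. Over all transcripts the 322 higher and 167 lower became 718 and 849 without a fold threshold and 142 and 61 above the median transcript, 109 were lower by the methods' t-test, and single cows gave 271 to 468 higher and 139 to 289 lower, the last without control_819. The causes of these shifts were not tested beyond what each setting removes. No paired analysis was possible because the groups share no cow number.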
